A study of Homo sapiens with 16 samples.

Results

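The data describe how the mRNAs of unstressed 293S cells were spread over a sucrose gradient. 293S is an established human line of the HEK293 embryonic kidney family, here grown as an attached layer in serum-containing medium with antibiotics, and the cells of this gradient received no treatment. The gradient was cut into 8 fractions and the RNA of each fraction was sequenced as 1 library, so 8 of the 16 libraries of the series were used; the 8 libraries from arsenite-treated cells were not used. RNA was extracted with Trizol and prepared by a method that the labels call NSR. The deposited table gives, for each of 13148 genes, the share of the gene's total that lay in each fraction. For every gene, the share in fractions 1 to 3 (light share) was compared with the share in fractions 5 to 7 (heavy share), with fractions 4 and 8 as context.

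In such a gradient, free messenger particles and ribosomal subunits stay near the top, and an mRNA sinks further the more ribosomes it carries. How many ribosomes an mRNA can hold depends on the length of its coding sequence and on how often translation starts, so the position of an mRNA is used as a measure of how actively it is translated. An mRNA held in a silent state, such as a ferritin mRNA bound by an iron regulatory protein, stays light, and an mRNA that exists in a silent and an active pool shows 2 peaks.

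The labels do not state which end of the gradient fraction 1 was taken from; low fraction numbers are called light and high numbers heavy here. Every fraction is a single library from a single gradient, so there is no replicate error, no p-value is given, and each value describes these libraries. Shares carry neither an expression level nor a sequencing depth. The depth is therefore unknown, no counting interval can be given, and the identity of the line could not be checked against marker genes. Shares listed at exactly 0 occurred in 1244 genes, most often in fraction 8 (460 genes) and fraction 7 (457 genes) and least often in fraction 4 (35 genes).

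Most mRNAs lay on the heavy side without stress. The median light share was 26.6% and the median heavy share 50.7%, with 17.5% in fraction 4 and 2.28% in fraction 8. The heavy percentage, defined as the heavy share over the sum of the heavy and light shares, had a median of 65.5% and quartiles of 52.6% and 74.7%. An mRNA was called heavy when its heavy share was at least 2 times its light share, light in the opposite case, and even otherwise. By this rule 6176 genes (47.0%) were heavy, 5986 (45.5%) were even and 986 (7.5%) were light. Fraction 5 was the largest for 3760 genes, fraction 6 for 2845, fraction 4 for 2706, fraction 7 for 1959, fraction 3 for 1408, fraction 2 for 306 and fraction 1 for 163. Fraction 8 was the largest for 1 gene only, MVP, the major vault protein, with 23.6% in fraction 8 and 17.1% in fraction 7.

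**Figure D1:**
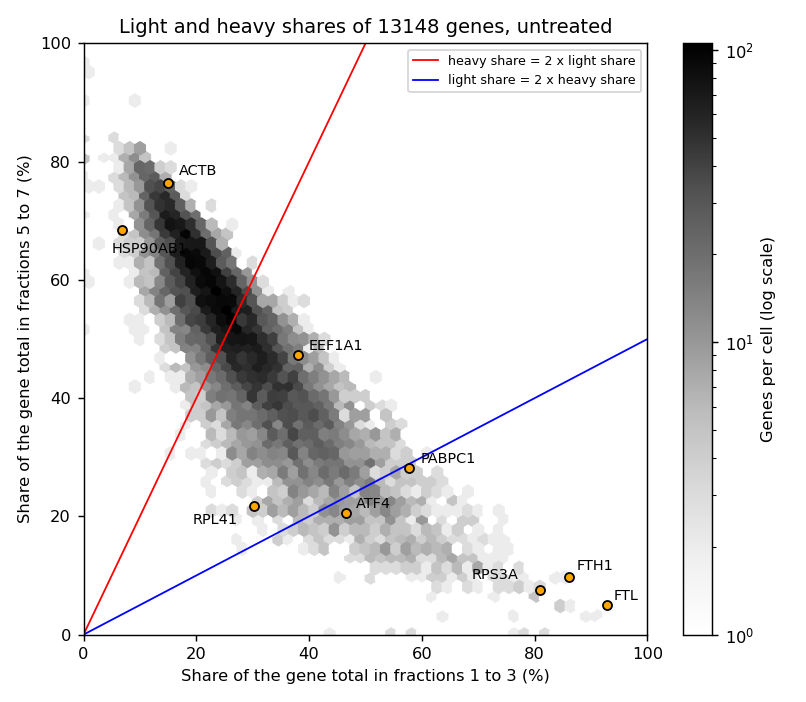
Light share (fractions 1 to 3, in percent) against heavy share (fractions 5 to 7, in percent) for all 13148 genes, shaded by the number of genes on a log scale; lines mark the 2-fold thresholds and orange points mark 9 named genes. The cloud lies mostly above the red line or between the lines, and FTL, FTH1 and RPS3A lie at the far light end with light shares of 92.8%, 86.1% and 81.0%.

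The counts of classes depended on how the fractions are weighed against each other, which the deposited shares fix. When each library was divided by a median-of-ratios size factor, which forces the typical mRNA to be flat, 2651 genes were heavy and 2522 were light, with a median heavy percentage of 52.1%. The order of the genes moved less: the Spearman correlation of the heavy percentage with its reported values across genes was 0.959 under that scaling. Leaving out 1 library moved the counts as much. There were 10728 heavy genes without fraction 3, 2906 without fraction 5, 2844 without fraction 6 and 3840 without fraction 7. Light genes numbered 337, 3638, 1636 and 1366 in the same order. A list's count under an alternative is to be read beside the counts of all 13148 genes under that alternative. Lists are therefore described by their place relative to the median of all genes as well as by their counts.

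The mRNAs of the 2 ferritin chains, which store iron, lay almost wholly in the lightest fractions. The light-chain mRNA FTL had 52.1%, 35.4%, 5.29%, 2.11%, 2.08%, 2.04%, 0.878% and 0.136% of its total in fractions 1 to 8. The heavy-chain mRNA FTH1 had 48.1%, 30.8%, 7.29%, 3.75%, 2.82%, 5.69%, 1.14% and 0.480%. Both therefore had their peak in fraction 1, where only 163 genes peaked, and their light shares were 18.6 times (FTL) and 8.92 times (FTH1) their heavy shares. The iron exporter ferroportin, SLC40A1, was less light, with 55.4% in fractions 1 to 3, 19.9% in fraction 4 and 22.1% in fractions 5 to 7. Its light call rested on fractions 2 and 3, without which its heavy percentage was 38.9% and 47.3% instead of 28.5%.

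Ferritin and ferroportin mRNAs carry a known iron-responsive element near their start, a hairpin whose loop reads CAGTGN above a short stem with an unpaired C. The matches in the annotated 5′ untranslated regions (GENCODE 29) are shown because the 3 light mRNAs of iron metabolism share them; capitals mark the unpaired C and the 6-base loop.
FTL: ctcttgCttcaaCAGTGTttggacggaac
FTH1: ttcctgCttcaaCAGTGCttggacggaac
SLC40A1: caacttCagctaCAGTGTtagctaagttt
The searched pattern was a C, 5 bases, CAGTGN and 5 bases that pair with the first 5, on the sense strand only. It occurred in 15 of 12430 annotated 5′ untranslated regions (0.121%), of which 4 belonged to light, 8 to even and 3 to heavy mRNAs. In FTL it spans transcript positions 41 to 57 on chromosome 19, and in FTH1 positions 65 to 81 on chromosome 11. A match to the pattern was thus not always accompanied by a light profile.

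Of the 10 listed genes of iron handling, 3 were light (FTL, FTH1 and SLC40A1), 2 were even and 5 were heavy, beside 7.5% light and 47.0% heavy among all genes. Without fraction 5, 6 or 7, 2 were heavy, beside 2906, 2844 and 3840 of all 13148 genes. ACO1, whose protein is iron regulatory protein 1 and binds the ferritin hairpin, lay at the opposite end, with 7.80% in fractions 1 to 3 and 51.5% in fraction 7 alone. The transferrin receptor mRNA TFRC, which carries its iron-responsive elements in the 3′ untranslated region, had 18.5% in fractions 1 to 3 and 60.5% in fractions 5 to 7. TFRC was even without fraction 7, with a heavy percentage of 61.4% instead of 76.6%.

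**Figure D2:**
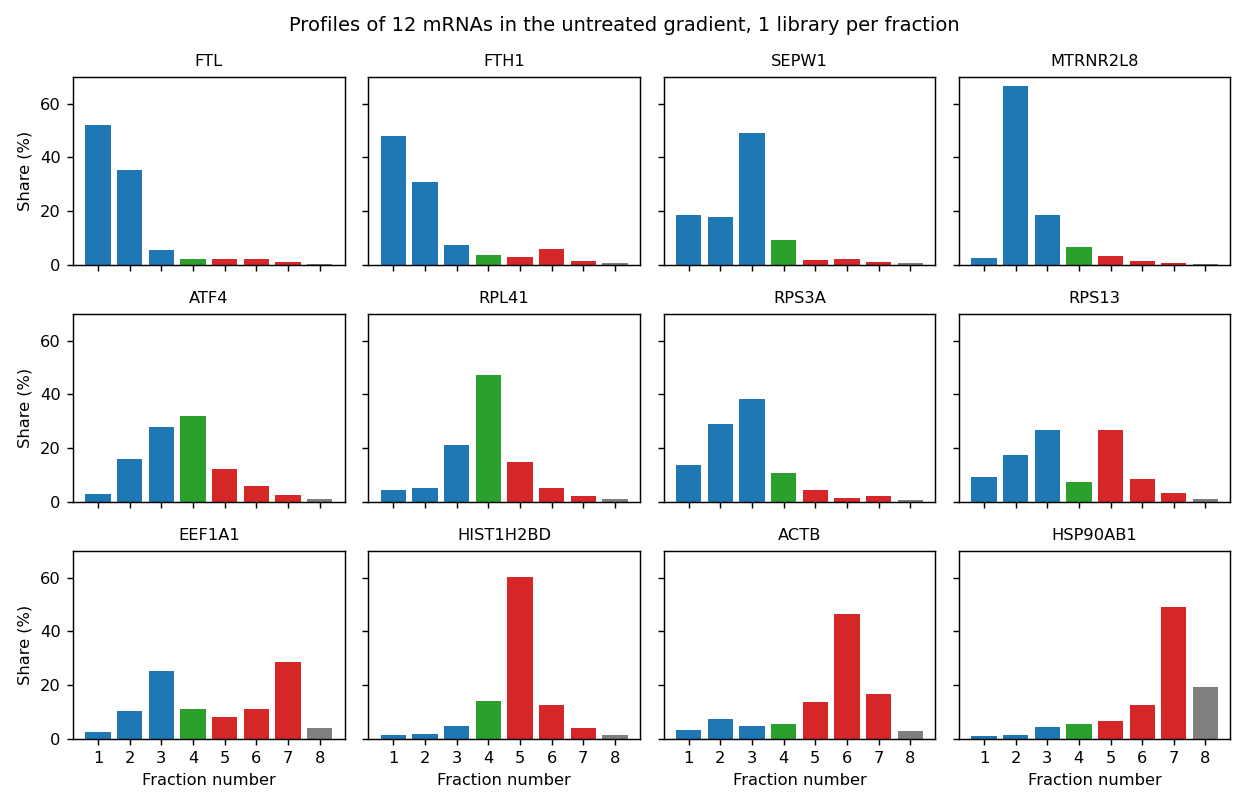
Share of the gene total (percent, vertical axis) in fractions 1 to 8 (horizontal axis) for 12 mRNAs, 1 library per fraction; blue bars are fractions 1 to 3, green fraction 4, red fractions 5 to 7 and grey fraction 8. FTL and FTH1 peak in fraction 1 (52.1% and 48.1%), RPL41 in fraction 4 (47.2%), HIST1H2BD in fraction 5 (60.4%), ACTB in fraction 6 (46.3%) and HSP90AB1 in fraction 7 (49.2%), while RPS13 and EEF1A1 have 2 peaks.

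Among genes with no share of 0, the 10 lowest heavy percentages belonged to MARCH2, C12orf75, MTRNR2L6, MTRNR2L1, FTL, SEPW1, UBE2D4, MTRNR2L8, GUK1 and LOC100127983, from 2.98% in MARCH2 to 6.07% in LOC100127983. These 10 genes, picked for their low values, stayed light under every alternative scaling, grouping of fractions and omission of a fraction that was tried. Leaving out fraction 4 or 8 cannot change the heavy percentage, and leaving out fraction 5, 6 or 7 can only lower it. Those omissions could not end a light call, and all 986 light genes kept theirs. Only the other alternatives could have ended it. MARCH2, a membrane-bound ubiquitin ligase, had 87.8% in fractions 1 to 3, with 45.3% in fraction 2. UBE2D4, a ubiquitin-conjugating enzyme, and GUK1, the guanylate kinase, had light shares of 84.9% and 84.8%. The MTRNR2L genes are nuclear copies of the mitochondrial 16S ribosomal RNA, so reads of the mitochondrial RNA and of the copies may not be separable. MTRNR2L6, MTRNR2L1 and MTRNR2L8 shared 1 profile, with 65.6%, 59.2% and 66.7% in fraction 2 and at most 9.28% in fraction 4.

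Selenoprotein mRNAs, which need a recoded UGA codon to insert selenocysteine, ran from the lightest to the heavy side. Of 19 listed members, 3 were light, 11 even and 5 heavy, beside 7.5% light and 47.0% heavy among all genes. Their median heavy percentage of 50.2% lay under the 65.5% of all genes, as it did in every alternative (by 6.45 to 22.2 percentage points). Without fraction 5, 12 were light, and without fraction 3, 11 were heavy, beside 3638 and 10728 of all 13148 genes. SEPW1, a small redox protein, had 18.6%, 17.7%, 49.3%, 9.17%, 1.79%, 1.98%, 0.909% and 0.587% in fractions 1 to 8. GPX4, which reduces lipid peroxides, had 77.0% in fractions 1 to 3 and 6.75% in fractions 5 to 7. GPX1, the cytosolic glutathione peroxidase, had 36.9% in fraction 3 and 36.1% in fraction 4; its light call was lost without fraction 3, at a heavy percentage of 47.7% instead of 19.9%. The thioredoxin reductases TXNRD1 and TXNRD2 were heavy, with 70.0% and 71.6% in fractions 5 to 7; TXNRD2 was just even without fraction 6, at 65.8% instead of 83.2%.

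Coding length went with where on the heavy side an mRNA lay more than with how much of it was light. The 13021 genes with an annotated coding sequence (99%) were put into 10 bins of nearly equal size by coding length. From the shortest bin (median 408 nucleotides) to the longest (median 4857), the median light share went only from 28.5% to 22.3%. The median heavy share went from 39.5% to 52.6%, and was already 49.7% in the second shortest bin. The median share in fraction 4 went from 25.5% to 17.1%, and the median heavy percentage from 57.6% to 70.5%. The largest fraction moved much more than the light share. In the shortest bin 45.7% of genes peaked in fraction 5, 37.4% in fraction 4 and 0.230% in fraction 7. In the bin with a median of 1551 nucleotides 33.3% peaked in fraction 6, and in the longest bin 49.2% peaked in fraction 7. The median mean fraction number, the sum of fraction number times share, went from 4.12 in the shortest to 5.01 in the longest bin, and light genes fell from 19.9% to 2.46%. Coding length and the heavy percentage had a Spearman correlation of 0.149 over these genes, which do not stand in for replicates. It was −0.038 without fraction 7 and 0.347 without fraction 5, so its direction rested on fraction 7.

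**Figure D3:**
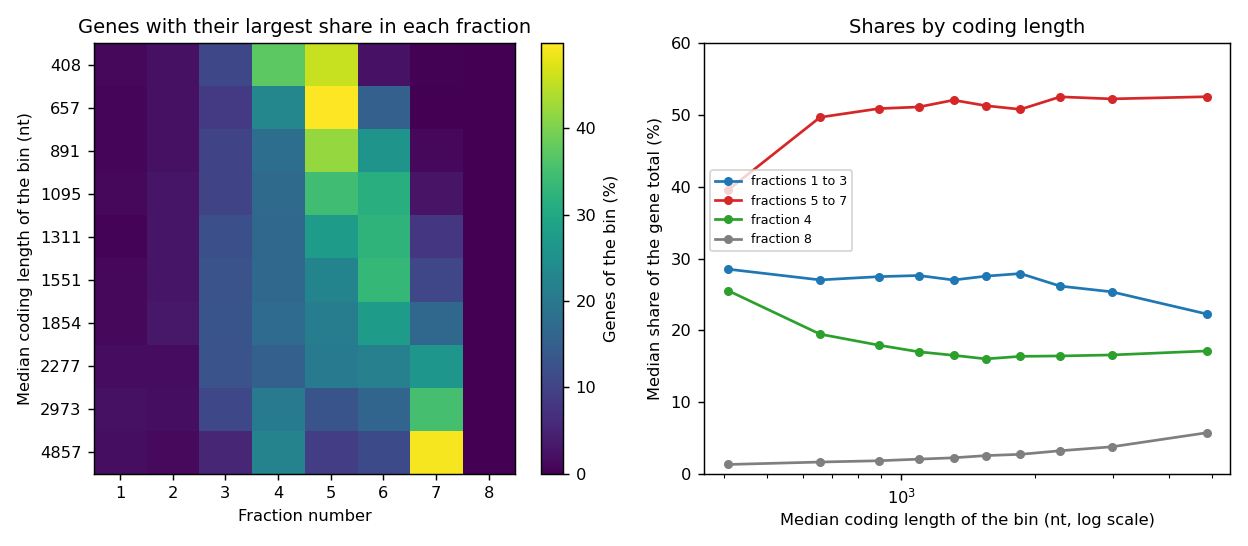
Left, percent of the genes of each of 10 coding-length bins (rows, labelled by the bin's median in nucleotides) that have their largest share in each fraction. Right, median shares (percent) of the same bins against coding length on a log axis; the largest fraction moves from 4 and 5 in the shortest bin to 7 in the longest, while the median light share stays between 28.5% and 22.3%.

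Short coding sequences lay in fraction 4 more often than longer ones. Of the 14 genes with at most 150 coding nucleotides, 7 peaked in fraction 4 and 6, all of them MTRNR2L genes, in fraction 2, and 10 were light. Of 229 genes with more than 150 and up to 300 coding nucleotides, 132 (57.6%) peaked in fraction 4 and 54 (23.6%) in fraction 5, whereas 20.8% of the 1743 genes with more than 600 and up to 900 coding nucleotides peaked in fraction 4. RPL41, the smallest ribosomal protein with a coding sequence of 75 nucleotides, had 4.19%, 4.98%, 21.0%, 47.2%, 14.9%, 4.95%, 1.90% and 0.970% in fractions 1 to 8. Its even call rests on the part outside fraction 4; under the size factors it was light, with a heavy percentage of 28.2% instead of 41.9%, and it was light without fraction 5 (18.5%) and heavy without fraction 3 (70.3%). At least 50% of the total lay in fraction 4 for 18 genes with no 0, of which 10 had coding sequences of at most 300 nucleotides. They included the actin-binding thymosins TMSB10 (54.7%) and TMSB4X (51.2%), both of 132 coding nucleotides, and the RNA polymerase subunits POLR2L (51.1%) and POLR2K (50.4%).

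Messengers with upstream start codons were somewhat lighter as a class. The median heavy percentage was 67.8% in the 5741 genes with no ATG in the annotated 5′ untranslated region, 65.0% with 1, 64.0% with 2 and 62.2% with 3 or more. Heavy calls were made for 53.0%, 45.4%, 42.9% and 37.4% of these groups. The Spearman correlation across genes was −0.136. Coding length went the other way, with medians of 1323 nucleotides without an upstream ATG and 1551 with 3 or more.

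Among 16 mRNAs known to be translated during stress through upstream reading frames, 2 were light, 8 even and 6 heavy, beside 7.5% light and 47.0% heavy among all genes. Their median heavy percentage was 62.9%, beside 65.5% for all genes. It also lay under that of all genes with size factors, with each fraction left out and with the other grouping of fractions, by 0.562 to 12.1 percentage points. Without fraction 5 there were 6 light and 2 heavy members, beside 3638 and 2906 of all 13148 genes. Both light members lie among the best-known genes of the list. ATF4, the central transcription factor of the integrated stress response, had 2.80%, 15.8%, 27.8%, 32.0%, 12.3%, 5.79%, 2.46% and 0.998% in fractions 1 to 8. DDIT3, its pro-apoptotic target also called CHOP, had nearly the same profile, with 27.8% in fraction 3, 32.0% in fraction 4 and 20.9% in fractions 5 to 7. Both were light, and both were called even without fraction 3 (52.5% for ATF4 and 53.9% for DDIT3) or without fraction 2 (40.2% and 38%), instead of 30.7% and 31.4%; DDIT3 was also even without fraction 1, at 34.7%. PPP1R15A, a subunit of the eIF2α phosphatase, and ATF5 lay further down, with 45.6% and 52.2% in fractions 5 to 7. EPRS, the glutamyl-prolyl-tRNA synthetase, was heavy, with 58.3% in fractions 5 to 7 and 18.9% in fraction 8. The list's median share in fraction 4 was 23.9%, beside 17.5% for all genes.

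Ribosomal protein mRNAs were lighter than the typical mRNA and many were split. They belong to the TOP mRNAs, whose 5′ end starts with a C and a run of pyrimidines and whose translation is switched on and off as a class by growth signals. Of 81 cytosolic ribosomal protein genes, 15 were light, 58 even and 8 heavy, beside 7.5% light and 47.0% heavy among all genes. These counts moved with single libraries and with the scaling. Without fraction 5, 60 were light and 1 heavy, beside 3638 and 2906 of all 13148 genes. Without fraction 3, 8 were light and 44 heavy, beside 337 and 10728. With size factors 46 were light and 2 heavy, beside 2522 and 2651. Their median heavy percentage was 50.2%, against 62.4% for the 1174 other genes whose coding length lay between the list's quartiles, 366 and 612 nucleotides. The list stayed under the median of all genes in every alternative, by 10.6 to 28.2 percentage points. The extremes were RPS3A, with 81.0% in fractions 1 to 3 and 7.51% in fractions 5 to 7, and RPS27A, made as a fusion with ubiquitin, with 16.1% and 74.3%. The list also takes in paralogs such as RPL22L1 and RPL39L, and ribosomal protein genes have many processed copies in the genome, which the counting could have split.

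A profile was called two-peaked when the highest of fractions 1 to 3 and the highest of fractions 5 to 7 each held at least 10% and the lowest fraction between them held at most 50% of the lower peak. Of the 81 ribosomal protein genes 28 met this rule, 26 of them with no 0, beside 7.27% of all genes and 4.55% of all genes with no 0. Of the 1174 other genes of similar coding length 4.26% met it. The median profile of the list had 21.6% in fraction 3, 11.7% in fraction 4 and 26.7% in fraction 5, whereas these other genes had a median of 23.2% in fraction 4. RPS13 had 9.28%, 17.5%, 26.5%, 7.24%, 26.9%, 8.32%, 3.22% and 1.00% in fractions 1 to 8. RPL4, a long member, had its second peak later, with 26.3% in fraction 3, 8.6% in fraction 4 and 26.7% in fraction 6. The dip thus sat mainly in the single library of fraction 4. Without fraction 4, 3 ribosomal protein genes were two-peaked (3.70%, beside 5.95% of all genes). Peaks in fractions 3 and 5 then have no fraction between them and cannot meet the rule. Part of this fall was therefore fixed in advance, and the omission cannot show whether the list stood above the background. Without fraction 3 there were 7 (8.64%, beside 4.37%), without fraction 5 there were 10 (12.3%, beside 5.82%), and with size factors 39 (48.1%, beside 29.4%).

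Many of the other TOP mRNAs were also split. Of 21 listed members, 2 were light, 14 even and 5 heavy, beside 7.5% light and 47.0% heavy among all genes. Of the 21, 9 had 2 peaks (42.9%, beside 7.27% of all genes). EEF1A1, which delivers aminoacyl-tRNA to the ribosome, had 2.55%, 10.3%, 25.1%, 11%, 7.88%, 10.9%, 28.4% and 3.79% in fractions 1 to 8. Its second peak rested on fraction 7, without which it was light at a heavy percentage of 33.1%, and without fraction 3 it was heavy at 78.6%, instead of 55.4%. EEF2, the translocase, had 18.0% in fraction 3, 6.56% in fraction 5 and 34.8% in fraction 7. PABPC1, the poly(A)-binding protein, leaned to the light side, with 25.5% in fraction 2, 28.2% in fraction 3, 5.83% in fraction 5 and 14.9% in fraction 7; its light call was narrow and ended without fraction 1, 2 or 3, at heavy percentages of 34.4%, 46.6% and 48.8% instead of 32.8%. EEF1G, EIF4B, EIF3F, EIF3H, EIF3L and GNB2L1, all parts of the translation machinery, completed the 9. TPT1, the translationally controlled tumour protein, was light without a second peak, with 67.9% in fractions 1 to 3, 36.1% of it in fraction 3; without fraction 3 it was even, at 41.7% instead of 25.1%. VIM, the intermediate filament protein vimentin, was the heaviest listed member, with 48.4% in fraction 7, and was even without that fraction at 59.9% instead of 82.3%. The two-peak count of the list was 7 without fraction 4 or 5, 2 without fraction 3, 4 without fraction 6, 5 without fraction 7 and 15 with size factors. Its heavy count was 18 without fraction 3 and 1 without fraction 6 or 7. Of all 13148 genes, 10728 were heavy without fraction 3, 2844 without fraction 6 and 3840 without fraction 7.

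The first 20 bases at annotated RefSeq starts (GRCh38.p14, while the deposited table was made on hg19) are shown for TOP mRNAs of different profiles and for 2 heavy mRNAs; capitals mark a run of at least 5 pyrimidines that starts with C at the first base.
EEF1A1, chr6:73521013-73521032, minus strand: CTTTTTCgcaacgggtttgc
EEF2, chr19:3985444-3985463, minus strand: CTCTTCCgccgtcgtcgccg
GNB2L1, chr5:181243887-181243906, minus strand: CTCTCTTTCactgcaaggcg
RPS13, chr11:17077648-17077667, minus strand: CCTTTCgttgcctgatcgcc
RPL4, chr15:66504836-66504855, minus strand: aagcacttccttttcctgtg
RPS6, chr9:19380217-19380236, minus strand: CTCTTTTCCgtggcgcctcg
RPL41, chr12:56116633-56116652, plus strand: CTCTCggccttagcgccatt
RPS3A, chr4:151099628-151099647, plus strand: CCCTTTTggctctctgacca
TPT1, chr13:45341164-45341183, minus strand: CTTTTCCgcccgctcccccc
PGK1, chrX:78104248-78104267, plus strand: gttccgcattctgcaagcct
PARP1, chr1:226408074-226408093, minus strand: agcaatctatcagggaacgg
Two-peaked mRNAs (EEF1A1, EEF2, GNB2L1, RPS13 and RPS6), light mRNAs (RPS3A and TPT1) and the fraction 4 mRNA RPL41 all began with such a run, and the two-peaked RPL4 did not at its annotated start. Of the starts not shown, those of the two-peaked EEF1G, of RPL3 and of the heavy VIM and NCL had no such run. Those of EIF4B, RPLP0, RPL13A and NACA had it. The heavy HSP90AB1 had the run at an annotated start and lacked it at its others.

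Such a start was annotated for 46 of 66 matched ribosomal protein genes (69.7%) and 13 of 15 matched other TOP genes (86.7%), against 1429 of 35116 starts in the whole RefSeq promoter table (4.07%) and 799 of 10732 matched genes (7.45%). Its share was 9.78% in light, 8.12% in even and 6.43% in heavy mRNAs. Among ribosomal protein genes with no 0, 16 of 46 with the run and 7 of 17 without it were two-peaked. Outside the TOP lists, 27 of 690 genes with the run (3.91%) and 368 of 9035 without it (4.07%) were two-peaked, so the run at the annotated start did not go with a split profile there.

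**Figure D4:**
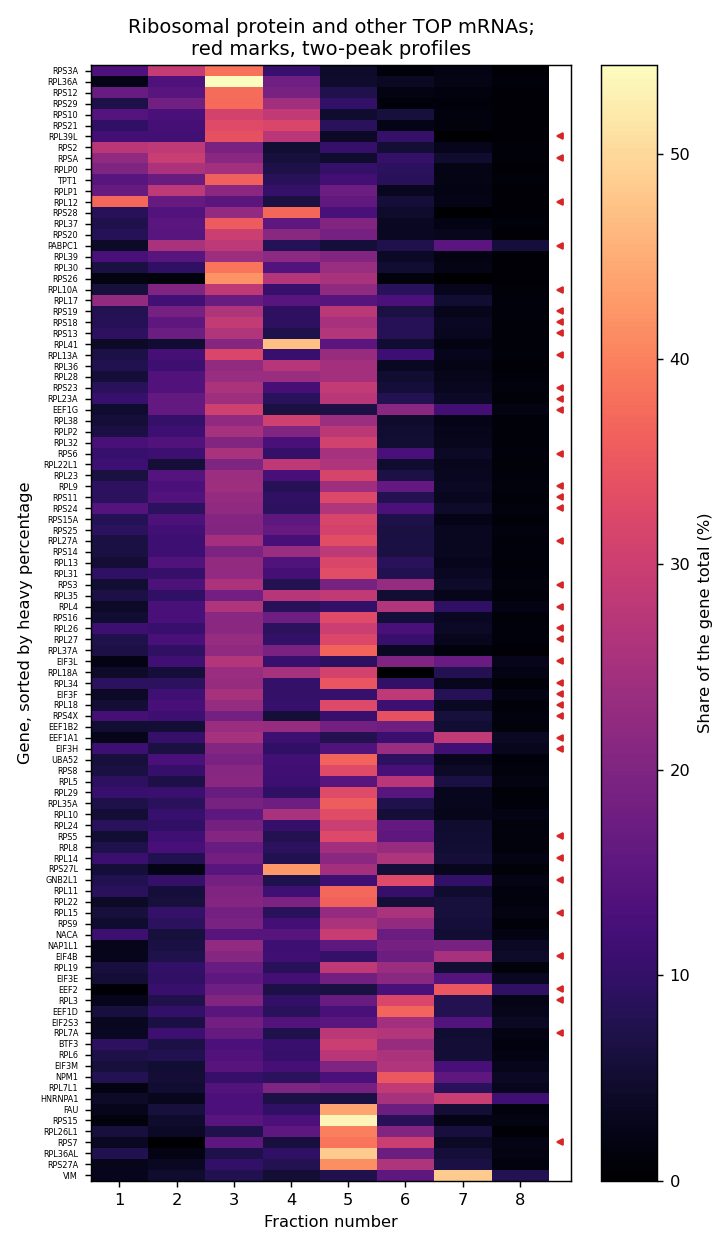
Share of the gene total (percent, colour) in fractions 1 to 8 for the ribosomal protein and other TOP mRNAs, 1 row per gene, sorted from light (top) to heavy (bottom); red marks show two-peak profiles. Many rows have a bright fraction 3, a darker fraction 4 and a second bright fraction between 5 and 7, and RPS3A at the top has no second peak.

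In all, 956 genes (7.27%) met the two-peak rule, but 414 of them had a share of 0 somewhere; among the 11904 genes with no 0, 542 (4.55%) met it. Among the 1244 genes with a 0 the proportion was 33.3%. Of the 542, 420 were even, 110 heavy and 12 light. Their peaks lay most often in fractions 3 and 7 (147 genes, 27.1%) or 3 and 6 (115 genes, 21.2%), and the dip was in fraction 4 in 179 (33.0%) and in fraction 5 in 137 (25.3%). With size factors 3300 genes with no 0 had 2 peaks (27.7%), so this count depends on the scaling of the fractions more than any other.

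The 10 deepest dips were those of PIF1, ITGA8, KBTBD10, KIAA1199, TGFB1I1, RELB, PHYHIPL, LTBP4, MEGF6 and SLC8A3. PIF1, a DNA helicase, had 39.8% in fraction 3, 2.38% in fraction 5 and 23.5% in fraction 7. RELB, a subunit of NF-κB, had 23.3% in fraction 2, 3.18% in fraction 3 and 22.9% in fraction 5. The ratio of the dip to the lower peak was identical to 6 decimals in KBTBD10 and KIAA1199 (0.131152) and in RELB and PHYHIPL (0.138632). The number of reads behind these 10 genes is unknown. Of these 10, PIF1 and TGFB1I1 kept 2 peaks whichever fraction was left out.

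**Figure D5:**
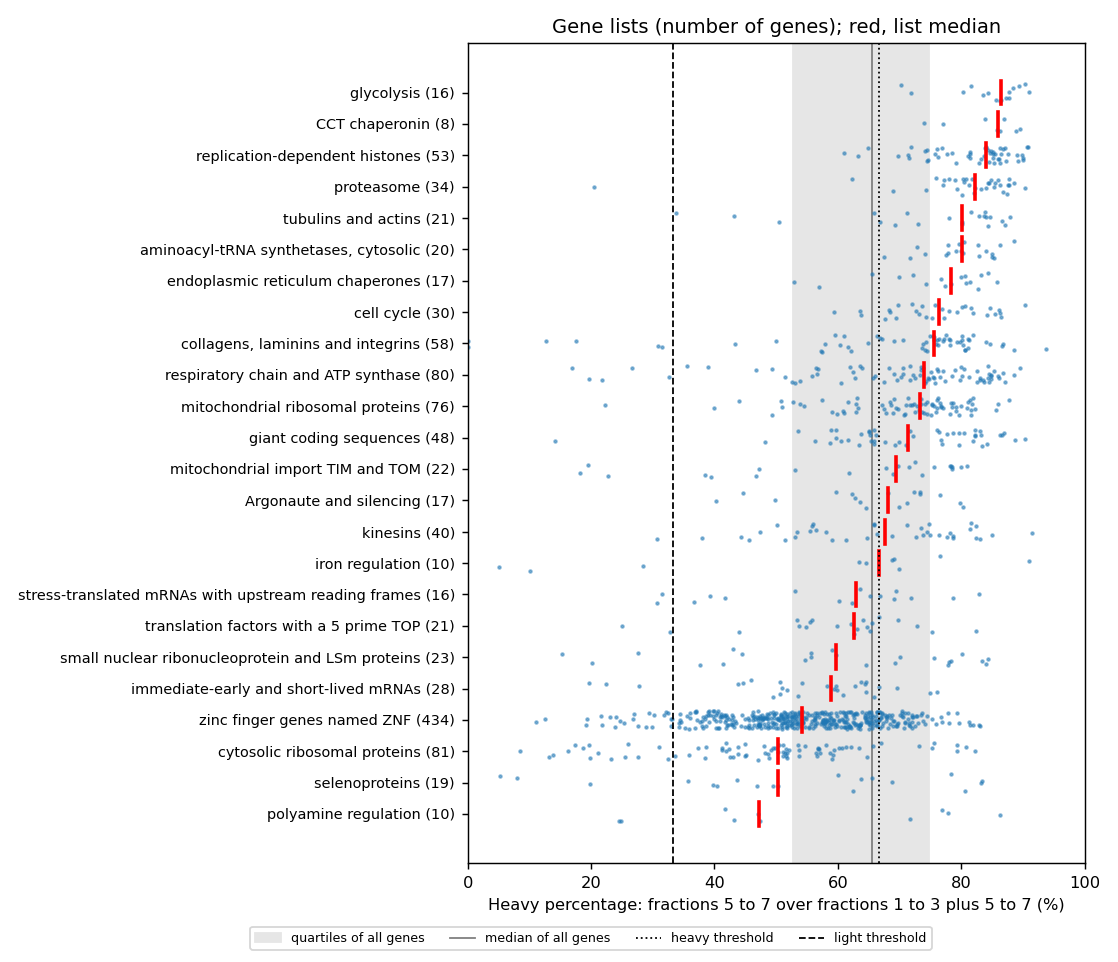
Heavy percentage of every member (blue points) of 24 gene lists, sorted by the list median (red bars), with the median and quartiles of all genes (grey) and the heavy and light thresholds (dotted and dashed). Glycolysis and the CCT chaperonin lie highest (medians 86.4% and 86.0%), and polyamine regulation, selenoproteins and cytosolic ribosomal proteins lowest (47.2%, 50.2% and 50.2%).

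The mRNAs of abundant cytosolic enzymes and machines were heavy nearly throughout. All 16 glycolysis genes were heavy, beside 47.0% of all genes, with a median heavy percentage of 86.4%. PGK1, which makes ATP in the pathway, had 1.09%, 2.94%, 3.94%, 6.04%, 8.81%, 30.7%, 40.9% and 5.58% in fractions 1 to 8. GAPDH was the lightest of them, with 11.4% in fraction 1, 4.80% in fraction 4 and 39.5% in fraction 6. It met the two-peak rule and was even without fraction 6 (48.1% instead of 70.2%), without fraction 7 (64.1%) and with size factors (50.3%); GAPDH has many processed copies in the genome. All 8 subunits of the CCT chaperonin, which folds actin and tubulin, were heavy, from 74.0% in TCP1 to 89.5% in CCT7; TCP1 was just even without fraction 6 or 7, at 63.5% and 65.3%. All 20 cytosolic aminoacyl-tRNA synthetases were heavy as well, with a median of 80.0%. Without fraction 7, 13 of them were heavy, beside 3840 of all 13148 genes.

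Of 34 proteasome genes 32 were heavy, beside 47.0% of all genes. In fraction 6, 25 of the 34 peaked, beside 21.6% of all genes. PSMD2, a subunit of the regulatory particle, had 44.1% in fraction 6 and 8.76% in fractions 1 to 3. The exceptions were the ATPase PSMC6, which was even at 62.3% and heavy without fraction 1, 2 or 3 (68.1%, 68.0% and 78.7%), and the immunoproteasome subunit PSMB10, which was light at 20.5% with a share of 0 in fraction 8. Among 21 genes listed as tubulins and actins 17 were heavy, beside 47.0% of all genes. The longest coding sequence of the list had 5457 nucleotides, against a median of 1347, so the list may hold a gene of another kind. Without fraction 6, 10 were heavy, beside 2844 of all 13148 genes. ACTB, cytoplasmic actin, had 3.18%, 7.13%, 4.66%, 5.56%, 13.5%, 46.3%, 16.6% and 3% in fractions 1 to 8. TUBB, a β-tubulin of slightly longer coding sequence, had 45.7% in fraction 7 and 21.5% in fraction 6. TUBA8, an α-tubulin, was the lightest of the list, with 35.8% in fraction 3; it was even at 33.7%, just inside the threshold, and light without fraction 5, 6 or 7 (17.8%, 25.8% and 31.2%). Tubulin and actin genes have near-identical paralogs, so the assignment of their reads is uncertain.

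Endoplasmic reticulum chaperones and cell division genes followed the same course. Of 17 chaperone genes 14 were heavy, beside 47.0% of all genes. HSPA5, the main luminal Hsp70 also called BiP, had 45.9% in fraction 7 and 11.4% in fraction 8. The cytosolic chaperone HSP90AB1 lay deeper still, with 49.2% in fraction 7 and 19.2% in fraction 8 against 6.83% in fractions 1 to 3. SDF2L1, a small luminal chaperone, was even at 52.9%, with 36.6% in fraction 4, but heavy without fraction 3 (77.9%) and light without fraction 5 (25.1%). Of 30 cell cycle genes 27 were heavy and none was light, beside 47.0% and 7.5% of all genes. Without fraction 6, 14 were heavy, and without fraction 7, 16, beside 2844 and 3840 of all 13148 genes. MCM6, a subunit of the replicative helicase, had 74.0% in fractions 5 to 7, and CDK1, the mitotic kinase, was the lightest with 35.5% in fractions 1 to 3 and 51.7% in fractions 5 to 7.

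The 10 highest heavy percentages among genes with no 0 ran from 92.6% to 95.3% and belonged to ALG1L, PARP1, EIF3C, PDHA2, SNRNP200, TAF15, MYH14, RET, ANP32C and NCL. All 10, picked for their high values, stayed heavy in every alternative tried. Leaving out fraction 4 or 8 cannot change the heavy percentage, and leaving out fraction 1, 2 or 3 can only raise it. Those omissions could not end a heavy call, and all 6176 heavy genes kept theirs. Only the other alternatives could have ended it. PARP1, which senses DNA breaks, had 0.622%, 0.789%, 3.35%, 5.44%, 10.6%, 25.2%, 47.1% and 6.98% in fractions 1 to 8. NCL, the nucleolar protein nucleolin, had 48.9% in fraction 7, and SNRNP200, a spliceosomal helicase with a coding sequence of 6408 nucleotides, had 36.9% in fraction 7 and 25.3% in fraction 8. ALG1L, PDHA2 and ANP32C are close copies of other genes and EIF3C has a near-identical neighbour, so reads of those relatives may be counted in them.

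Replication-dependent histone mRNAs nearly all peaked in fraction 5. They have no poly(A) tail and end in a stem-loop instead. Of 53 genes 50 were heavy, 3 even and none light, beside 47.0% heavy among all genes. Their largest share was in fraction 5 for 48, beside 28.6% of all genes. HIST1H2BD had 1.42%, 1.59%, 4.78%, 14.0%, 60.4%, 12.4%, 4.06% and 1.32% in fractions 1 to 8, and HIST1H2BN had 64.7% in fraction 5. The list's median share in fraction 5 was 51.3% and its median heavy percentage 84.0%, whereas the 56 other genes with coding lengths between the list's quartiles, 378 and 390 nucleotides, had medians of 31.2% and 63.2%. HIST4H4 was the lightest member with no 0, with 42.4% in fraction 4 and 28.2% in fraction 5. The class rested on the library of fraction 5. Without it 5 genes were heavy, 41 even and 7 light, beside 2906, 6601 and 3638 of all 13148 genes. Histone genes are near-identical copies, so their reads may be split among them.

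The 3′ stem-loop is shown for the 2 heaviest members with no 0, with the stem and loop in capitals (GENCODE 29).
HIST1H2BD: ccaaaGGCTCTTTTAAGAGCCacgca
HIST1H2BN: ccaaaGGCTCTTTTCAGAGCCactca
The same letters, with any base allowed at positions 3, 4, 10, 13 and 14 of the capitals, were searched on the sense strand. The pattern occurred in 30 of 12831 annotated 3′ untranslated regions (0.234%), among them 21 of the 25 histone genes of the list that have such a region annotated. Of the 30 genes 25 were heavy, 5 even and none light, beside 47.0% heavy among all genes. Of these 25 heavy genes, 20 were members of the histone list, already counted above. Outside the list, CDK2, H2AFX, RGS4, SCLY and SMAD4 were heavy, and CAPZA1, CDR2L, PRKCE and TIPARP were even. The pattern outside the histone list thus did not always go with a heavy profile.

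Mitochondrial proteins made in the cytosol were mostly heavy, in contrast to the cytosolic ribosomal proteins of similar length. Among all genes 47.0% were heavy, 7.5% light and 7.27% two-peaked. Of 76 mitochondrial ribosomal protein genes 57 were heavy, 18 even and 1 light, with a median heavy percentage of 73.3%, and 1 had 2 peaks. Of 80 genes of the respiratory chain and ATP synthase 55 were heavy, 20 even and 5 light, with a median of 74.0%, and none had 2 peaks. ATP5B, the catalytic β subunit of ATP synthase, had 55.9% in fraction 6. UQCR11, a complex III subunit of 168 coding nucleotides, and MRPL33, of 195, were the lightest of the lists, with 40.3% in fraction 3 and 32.0% in fraction 4 for UQCR11 and 32.5% and 38.9% for MRPL33; both were even without fraction 3, at 41.9% and 48.3%. Both counts rested on fraction 5. Without it 12 mitochondrial ribosomal protein genes and 14 respiratory genes were heavy, beside 2906 of all 13148 genes. Genes of the TIM and TOM import complexes were mixed, with 13 of 22 heavy and 3 light, beside 47.0% and 7.5% of all genes. Without fraction 5, 1 was heavy and 9 were light, beside 2906 and 3638 of all 13148 genes. With size factors 3 were heavy and 7 light, beside 2651 and 2522. TOMM5, a small subunit of the outer membrane translocase, had 40.0% in fraction 3 and 33.0% in fraction 4 and was even without fraction 3, at 46.3% instead of 18.2%, while TOMM34, a cytosolic cochaperone of import, had 37.7% in fraction 5.

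Zinc finger genes named ZNF, many of them transcriptional repressors with a KRAB domain, were the largest list to lie under the median. Of 434 genes, 24 were light, 342 even and 68 heavy (15.7% heavy, beside 47.0% of all genes). Their median heavy percentage was 54.2%, against 65.5% in all genes and 65.5% in other genes with coding lengths between the list's quartiles, and it was under the median of all genes in every alternative, by 6.31 to 11.4 percentage points. The heavy count was 312 without fraction 3 and 14 without fraction 5 or 6, and the light count 147 without fraction 5. Of all 13148 genes, 10728 were heavy without fraction 3, 2906 without fraction 5 and 2844 without fraction 6. Without fraction 5, 3638 of them were light. They peaked in fraction 4 in 139 genes and in fraction 3 in 118, beside 20.6% and 10.7% of all genes. ZNF124 was the lightest, with 40.7% in fraction 1 and 33.5% in fraction 2. ZNF330 was the heaviest, with 38.7% in fraction 6.

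Immediate-early and other short-lived mRNAs were mostly even, and several were split. Of 28 genes, 3 were light, 21 even and 4 heavy, and 7 (25%) had 2 peaks, beside 7.5% light, 47.0% heavy and 7.27% two-peaked among all genes. The heavy count was 18 without fraction 3 and 0 without fraction 6 or with size factors. Of all 13148 genes, 10728 were heavy without fraction 3, 2844 without fraction 6 and 2651 with size factors. ZFP36, which binds AU-rich elements and speeds mRNA decay, had 38.3% in fraction 2 and 30.8% in fraction 3 and was even without fraction 2, at 34.0% instead of 19.7%. DUSP1, a MAP kinase phosphatase, had 20.4% in fraction 2, 10.2% in fraction 4 and 22.4% in fraction 6. MYC, a short-lived growth regulator, had 24.9% in fraction 6 and 24.9% in fraction 7 and was even without either of them, at 64.5% instead of 74.8%. JUN, a subunit of the AP-1 factor, had 30.1% in fraction 7, and MCL1, a short-lived survival factor, had 34.2% in fraction 6. JUN was even without fraction 5, 6 or 7 (65.4%, 60.7% and 53.3% instead of 69.6%), and MCL1 was even without fraction 6, at 60.5% instead of 76.1%. The two-peak count was 3 without fraction 2, 4 without fraction 3, 4, 5 or 6, and 14 with size factors, under which 29.4% of all genes were two-peaked.

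Polyamine genes, whose translation is controlled by polyamines at several steps, had the lowest reported median of the lists (47.2%). Of 10 members 2 were light, 4 even and 4 heavy, beside 7.5% light and 47.0% heavy among all genes. The rank did not hold throughout: the ribosomal proteins lay lower with size factors (31.3% against 32.4%) and without fraction 5 (20.9% against 28.4%), and the selenoproteins without fraction 2 (57.5% against 62.1%). Without fraction 5 or with size factors, 6 members were light and 1 heavy. Of all 13148 genes, 3638 were light and 2906 heavy without fraction 5, and 2522 and 2651 with size factors. SRM, spermidine synthase, and AMD1, which makes its aminopropyl donor, were light, with 51.6% and 56.4% in fractions 1 to 3; both were even without fraction 3, at 37.2% and 53.1%. OAZ1, the antizyme whose full-length synthesis needs a ribosomal frameshift, had 49.1% in fraction 4, and SAT1, which acetylates spermidine and spermine, had 39.3% there. ODC1, ornithine decarboxylase, was spread, with 24.8% in fraction 2 and 19.1% in fraction 5. OAZ2, a second antizyme, had 40.9% in fraction 5; it was heavy, but even without fraction 5 at 50.1% instead of 77.9%.

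Long messengers reached the last fractions. Of 48 genes with giant coding sequences (median 13164 nucleotides) 28 were heavy, 19 even and 1 light, beside 47.0% heavy and 7.5% light among all genes. In fraction 7, 32 peaked, beside 14.9% of all genes. The list's median share in fraction 8 was 12.6% against 2.28% in all genes. DYNC1H1, the heavy chain of the dynein motor, had 30.5% in fraction 7 and 18.8% in fraction 8. AHNAK, a giant scaffold protein, was the lightest with no 0, with 37.1% in fractions 1 to 3, 21.6% in fraction 4 and 34.5% in fractions 5 to 7. Without fraction 7, 13 giant genes were heavy, and without fraction 3, 46, beside 3840 and 10728 of all 13148 genes. Among 58 genes matched as collagens, laminins and integrins, 40 were heavy and 28 peaked in fraction 7, beside 47.0% and 14.9% of all genes. COL4A2, a basement membrane collagen, had 45.7% in fraction 7 and 18.3% in fraction 8 (even without fraction 7, at 65.1% instead of 86.7%). The match also took in the integrin-binding proteins ITGB1BP1, ITGB1BP2 and ITGB3BP, and 13 members had a share of 0. Kinesins (20 of 40 heavy, median 67.5%) and Argonaute and silencing genes (9 of 17 heavy, median 68.1%) lay close to all genes (47.0% heavy, median 65.5%). Without fraction 7 their heavy counts were 7 (kinesins) and 1 (Argonaute and silencing genes), and 18 for the collagens, laminins and integrins. Of all 13148 genes 3840 were then heavy. ITGAE, an integrin chain of lymphocytes, was the lightest collagen, laminin or integrin gene with no 0, with 46.6% in fraction 3, and was even without it, at 34.2% instead of 12.6%. XPO5, which exports miRNA precursors from the nucleus, had 39.2% in fraction 7 and was even without it, at 61.8% instead of 80.2%. PRKRA, a partner of Dicer, had 44.9% in fractions 1 to 3.

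Of 23 genes of small nuclear ribonucleoproteins and LSm proteins, 3 were light, 10 even and 10 heavy, beside 7.5% light and 47.0% heavy among all genes. Without fraction 3 none was light and 18 were heavy, and without fraction 5, 11 were light and 2 heavy. Of all 13148 genes, 337 were light and 10728 heavy without fraction 3, and 3638 and 2906 without fraction 5. SNRPD3, a core Sm protein, had 47.2% in fraction 5 and 13.8% in fractions 1 to 3, and was just even without fraction 5, at 65.9% instead of 84.3%. LSM10, a Sm-like protein of the U7 particle, had 39.8% in fraction 3 and 29.1% in fraction 4, and was even without fraction 3, at 35.3% instead of 15.2%. All 3 light genes of the list, LSM10, LSM4 and LSM3, were of the LSM family, and the list's 10 heavy genes were SNRP genes except LSM14B.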

How the data were processed

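The 8 untreated gradient libraries were used, 1 per fraction. The deposited values are the fraction of a gene's total found in each gradient fraction, over RefSeq exons per the file headers; the 8 values sum to 1 within 2.2e-15. The score that the authors deposited beside them equals the mean fraction number within 1.5e-14. The submitters' processing notes name hg19; the sources used here do not name the aligner, the counting or the scaling between fractions. Shares are printed as percentages. Coding lengths came from GENCODE 29 (1 transcript per gene, matched by symbol for 12311 genes and by an older symbol for 728) and start sequences from RefSeq (GRCh38.p14), both used for names, lengths and letters only.

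Heavy, light and two-peak calls followed the rules in the text. The genes named were, among genes with no 0, the 10 with the highest and the 10 with the lowest heavy percentage, the 10 two-peak genes with the deepest dip, the lightest and the heaviest member of each list, and 16 genes chosen by name; the other genes named were chosen after their values were seen. The members and lists were chosen with earlier results of these data known. Alternatives were size factors, 1 percentage point added to each share, genes with no 0, each fraction left out, other thresholds and other fraction groups. Python 3.11.15, pandas 2.3.3, numpy 2.4.6, scipy 1.17.1 and matplotlib 3.10.9 were used. The calls were run on simulated profiles at chosen read depths. The depth of these libraries is unknown, so that run cannot give the error of the calls here.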

Additional observations from a re-analysis of the deposited data

How the results depend on the processing

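With 1 library per fraction, each fraction left out is also the only library of that position, and depth, which limits the rare mRNAs most, is unknown. No paired analysis was possible because each group of fractions comes from 1 gradient with no replicate. With size factors there were 2651 heavy, 2522 light and 3871 two-peak genes, the median heavy percentage was 52.1% and the correlation with coding length 0.277. Without fraction 2 there were 581 light and 3911 even genes. Without fraction 3 there were 10728 heavy, 337 light, 2081 even and 575 two-peak genes, with a median of 81.5%. Without fraction 5 there were 2906 heavy and 3638 light genes, a median of 49.1%, on the other side of 50%, and a correlation of 0.347. Without fraction 6 there were 2844 heavy and 1636 light genes and a median of 55.4%. Without fraction 7 there were 3840 heavy genes and the correlation was −0.038. A 1.5-fold threshold gave 1533 light and 3440 even genes, and a 3-fold threshold 3213 heavy, 522 light and 9413 even genes. Fractions 1 to 4 against 5 to 8 gave 2745 heavy and 1991 light genes and a median of 53.9%. A dip of at most 75% gave 2454 two-peak genes, of at most 25% 350, and genes with no 0 gave 542. These lists changed side relative to the median of all genes: TIM and TOM import (51.8% with size factors, 39.7% without fraction 5, 53.2% with fractions 1 to 4 against 5 to 8), iron regulation (69.2%, 80.4% and 55.9% without fractions 1, 3 and 7), snRNP and LSm proteins (81.7% without fraction 3), TOP factors (54.0% without fraction 5, 56.8% with fractions 1 to 4 against 5 to 8), mitochondrial ribosomal proteins, respiratory chain and histones (47.5%, 41.5% and 49.0% without fraction 5), and giant coding sequences, kinesins and Argonaute genes (55.4%, 56.0% and 56.4% without fraction 7). The cause was not tested. No gene named by rule and reported as heavy or light took the opposite call, while even genes could become either. Across genes the heavy percentage kept a Spearman correlation of 0.892 to 1.00 with its reported values when a fraction was left out.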

Other observations

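Genes were also grouped by the letters of their symbol, which gave 159 groups of at least 10 genes, ranked by the median heavy percentage; the groups named here were chosen from the ends of that ranking, so their place is a description. Beside the LSM genes, the lightest group was ZDHHC, the palmitoyltransferases that attach fatty acids to proteins, with a median of 44.7%. Of its 22 genes 7 were light and 5 heavy, beside 7.5% and 47.0% of all genes. The light count ran from 1 to 14 under the alternatives, while that of all 13148 genes ran from 337 to 3638. ZDHHC4 had 63.0% in fractions 1 to 3 and 14.9% in fractions 5 to 7, and ZDHHC14 had 36.3% in fraction 5. The G protein-coupled receptors named GPR had a median of 49.2% (33 genes), the synaptotagmins SYT, calcium sensors of vesicle fusion, 49.7% (12 genes), and the PRDM, THAP and HOXA transcription factors 51.1%, 51.5% and 51.7% (11 genes each). Within HOXA, which patterns the body axis, HOXA2 had 50.3% in fractions 1 to 3, while HOXA11 had 58.3% in fractions 5 to 7. These 6 groups lay under the median of all genes under each of the 10 alternatives in which groups were recomputed.

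At the heavy end lay the MCM genes of the replicative helicase and its relatives (median 84.7%, 10 of 10 heavy), the PSMD subunits of the proteasome cap (84.3%, 13 of 13), the aldehyde dehydrogenases ALDH (84.2%, 16 of 16), the Hsp70 chaperones HSPA (83.5%, 12 of 12), the membrane-binding annexins ANXA (82.1%, 9 of 10) and the exosome subunits EXOSC (78.6%, 9 of 10). HSPA9, the mitochondrial Hsp70, had 44.1% in fraction 7 and 11.4% in fractions 1 to 3, close to HSPA5 of the endoplasmic reticulum with 45.9% and 11.5%. HSPA13 was the lightest of its group, with 26% in fractions 1 to 3 and 58.0% in fractions 5 to 7. These 6 groups lay over the median of all genes under the same 10 alternatives, with the same limits. Their counts of heavy genes fell to as low as 6 for MCM, 10 for PSMD, 11 for ALDH, 7 for HSPA, 6 for ANXA and 3 for EXOSC. Of all 13148 genes 47.0% were heavy as reported, and the count fell to as low as 2651, with size factors.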
